A study of Mus musculus with 11 samples.

Results

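The neutrophil genes described here were chosen by name, as the genes whose platform symbol is Elane, Mpo, Prtn3, Ltf, Camp, Ngp, S100a8, S100a9, Retnlg or Chil3. They are 10 of the 19057 genes named on the array, and 16 of its 45281 probes measure them. Mpo has 4 probes, Chil3 has 3, Ltf has 2 and each of the other genes has 1.

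Neutrophils fill their granules in order as they mature. Primary granules, loaded at the promyelocyte stage, carry serine proteases and myeloperoxidase. Secondary granules, loaded later, carry lactoferrin, cathelicidin and related proteins, and the calcium-binding proteins of calprotectin fill the cytosol of the late cells. In mice the spleen makes granulocytes beside the bone marrow, and it enlarges this output under stress, whereas the liver of an adult mouse normally holds neutrophils only as passing blood cells. Here Elane, Mpo and Prtn3 are taken as primary genes, Ltf, Camp and Ngp as secondary genes, and S100a8, S100a9, Retnlg and Chil3 as late genes.

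All mice carried a Her2/neu transgene, which gives mammary tumours, whether treated or not. Their drinking water held Curaxin-137, a chromatin-acting drug candidate, at 0.1 or 0.2 mg/ml, or no drug. Dosing lasted 10 weeks and began at 4 weeks of age, so tissues were taken at 14 weeks. The mouse strain and the promoter of the transgene are not given in the sources used here. Each sample was read on its own bead array. Liver samples on water were replicates 1 and 25, those at the lower dose replicates 43 and 55, and those at the higher dose replicates 73 and 85. Spleen samples were replicate 8 on water, replicates 56 and 32 at the lower dose, and replicates 62 and 62_86 at the higher. The design text gives 2 mice for each treatment. Since the last pair shares a number, it may not be 2 separate mice, and all p-values below measure only the spread between these samples, which may be technical.

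Mean signal per array ran from 94.7 to 219, and 35.8% to 43.2% of the probes were detected, that is, had a detection p-value under 0.05. The hepatocyte gene Ttr lay at 13.13 to 13.52 log2 in the liver samples, and the B cell gene Cd79b at 11.08 to 12.16 log2 in the spleen samples. The arrays of a group were least alike in the spleen at 0.1 mg/ml (Pearson r = 0.948 over 14179 features) and in the liver on water (r = 0.971 over 12800), against 0.989 to 0.992 in the other pairs. In those pairs spleen replicate 32 and liver replicate 25 carried the neutrophil genes high, and counts of calls that rest on them are given with and without them.

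The 250 bases before the start of all 10 genes were searched, on both strands, for letters that granulocyte transcription factors are known to bind: TTGCNNAA for the C/EBP factors, GAGGAAG for PU.1 and TGTGGT for the RUNX factors. All 3 primary genes and S100a8 hold GAGGAAG, 4 of 10 genes, against 10.6% of the 32851 promoters in the table. Ltf, Ngp, S100a9 and Retnlg hold TTGCNNAA, 4 of 10, against 9.56% of all promoters. S100a9 alone holds TGTGGT, which 14% of all promoters hold. No promoter held both of the first 2 motifs, no match overlapped another, and Camp and Chil3 held none of the 3 in this window. A match of letters is a description and not a measured binding site. One promoter of each granule class, and that of Retnlg, the gene with the widest range in the spleen, are printed with the matched letters in capitals (RefSeq, GRCm38.p6, 5′ to 3′ along the gene's strand).
Elane, chr10:79886062-79886311, plus strand: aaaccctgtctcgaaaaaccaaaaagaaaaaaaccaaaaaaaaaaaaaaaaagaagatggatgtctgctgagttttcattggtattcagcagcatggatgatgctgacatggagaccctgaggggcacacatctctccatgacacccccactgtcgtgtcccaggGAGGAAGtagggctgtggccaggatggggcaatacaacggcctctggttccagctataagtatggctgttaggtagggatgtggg
Ngp, chr9:110419558-110419807, plus strand: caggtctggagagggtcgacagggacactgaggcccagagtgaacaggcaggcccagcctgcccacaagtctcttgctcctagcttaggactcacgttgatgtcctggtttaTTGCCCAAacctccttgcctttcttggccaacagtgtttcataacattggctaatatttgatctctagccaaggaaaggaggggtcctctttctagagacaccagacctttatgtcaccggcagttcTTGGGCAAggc
S100a8, chr3:90668821-90669070, plus strand: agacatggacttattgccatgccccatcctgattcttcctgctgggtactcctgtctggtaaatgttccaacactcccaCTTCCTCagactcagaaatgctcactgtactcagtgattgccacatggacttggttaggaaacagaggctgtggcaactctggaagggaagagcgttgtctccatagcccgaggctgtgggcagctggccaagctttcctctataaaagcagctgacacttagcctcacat
Retnlg, chr16:48872358-48872607, plus strand: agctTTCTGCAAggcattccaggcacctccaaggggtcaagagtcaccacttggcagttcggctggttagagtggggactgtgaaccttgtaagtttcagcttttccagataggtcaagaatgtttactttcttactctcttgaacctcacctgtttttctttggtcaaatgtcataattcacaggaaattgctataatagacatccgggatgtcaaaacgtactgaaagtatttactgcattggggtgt
Elane carries its GAGGAAG 85 to 79 bases before the start, and S100a8 its match, on the other strand, 171 to 165 bases before it. Ngp carries TTGCNNAA both 138 to 131 and 11 to 4 bases before the start, and Retnlg carries it 246 to 239 bases before. The starts used lie at the gene boundaries of the same annotation.

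In the spleen all 10 genes read higher on each of the 4 treated arrays than on the single water array, and all 10 were highest on replicate 32 at 0.1 mg/ml. Every treated array stood above the water array for 22% of all spleen features, and replicate 32 was the highest of the 5 arrays for 22% of them. With all 5 arrays in the fit, no gene of the 10 was called at either dose, at an adjusted p under 0.05. Whether higher values came from more neutrophils or from more RNA per cell cannot be told apart in whole tissue, here or below.

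For the primary genes the gap between the 2 arrays at 0.1 mg/ml exceeded the mean difference of that dose from water. The same held for Ltf and the late genes, though not for Camp and Ngp. Elane, neutrophil elastase (chr10:79886312-79888216), read 4.91 log2 on the water array, 5.86 and 8.25 on replicates 56 and 32 at 0.1 mg/ml, and 5.55 and 6.15 on replicates 62 and 62_86 at 0.2 mg/ml. Prtn3, proteinase 3, its neighbour on the chromosome (chr10:79879667-79883174), read 5.32 on water, 6.20 and 8.85 at 0.1 mg/ml, and 5.53 and 5.98 at 0.2 mg/ml. Mpo, myeloperoxidase, which makes hypochlorous acid (chr11:87793784-87804412), read 7.59 on water, 8.20 and 11 at 0.1 mg/ml, and 7.66 and 8.04 at 0.2 mg/ml. For each of these 3 genes replicate 32 stood 2.38 to 2.80 log2 above replicate 56, and replicate 62 stood closer to the water array than replicate 56 did. Both arrays at 0.2 mg/ml lay below both arrays at 0.1 mg/ml for Mpo and Prtn3, as they did for Camp, 3 of the 10 genes in all, against 20% of all features. For Mpo this was the order on its brightest probe, and not on each of its probes.

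Among the secondary genes the span was narrower. Ltf, lactoferrin, which binds iron (chr9:111019292-111042766), read 8.13 log2 on the water array, 8.39 and 9.93 on replicates 56 and 32, and 8.36 and 8.69 on replicates 62 and 62_86. Camp, the cathelicidin precursor of an antimicrobial peptide (chr9:109847377-109849456), read 7.19 on water, 7.79 and 8.87 at 0.1 mg/ml, and 7.50 and 7.55 at 0.2 mg/ml. Ngp, neutrophilic granule protein, a cystatin relative (chr9:110419808-110423012), read 5.05 on water, 6.12 and 7.69 at 0.1 mg/ml, and 6.91 and 6.83 at 0.2 mg/ml. Ngp differed from the other 2 in that both arrays at 0.2 mg/ml stood above replicate 56, whereas for Camp both stood below it. The gap of replicate 32 over replicate 56 was 1.54 for Ltf, 1.08 for Camp and 1.58 for Ngp.

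S100a8 and S100a9, the subunits of calprotectin, which binds calcium, zinc and manganese, were also highest on replicate 32. S100a8 (chr3:90669071-90670034) read 8.90 log2 on water, 9.87 and 12.52 on replicates 56 and 32, and 10.83 and 10.87 on replicates 62 and 62_86. S100a9 (chr3:90692630-90695721) read 8.84 on water, 9.69 and 11.92 at 0.1 mg/ml, and 9.59 and 9.77 at 0.2 mg/ml. The subunits thus parted at 0.2 mg/ml, where S100a8 stood above replicate 56 on both arrays and S100a9 lay on either side of it. Retnlg, a resistin-like secreted protein of mouse neutrophils (chr16:48872608-48874498), read 4.40 on water, 5.72 and 9.93 at 0.1 mg/ml, and 6.01 and 5.79 at 0.2 mg/ml. Chil3, a chitinase-like protein of mouse neutrophils and of some macrophages (chr3:106147554-106167564), read 6.22 on water, 6.92 and 8.73 at 0.1 mg/ml, and 7.50 and 7.15 at 0.2 mg/ml. Retnlg had the widest gap between replicates 32 and 56, at 4.21 log2, and on the water array it lay near the floor of about 4 log2. Chil3 has the near-identical relative Chil4, whose probe read 5.28 on water, 5.76 and 7.69 at 0.1 mg/ml, and 6.69 and 6.67 at 0.2 mg/ml, so the Chil3 values may hold signal of Chil4.

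**Figure D1:**
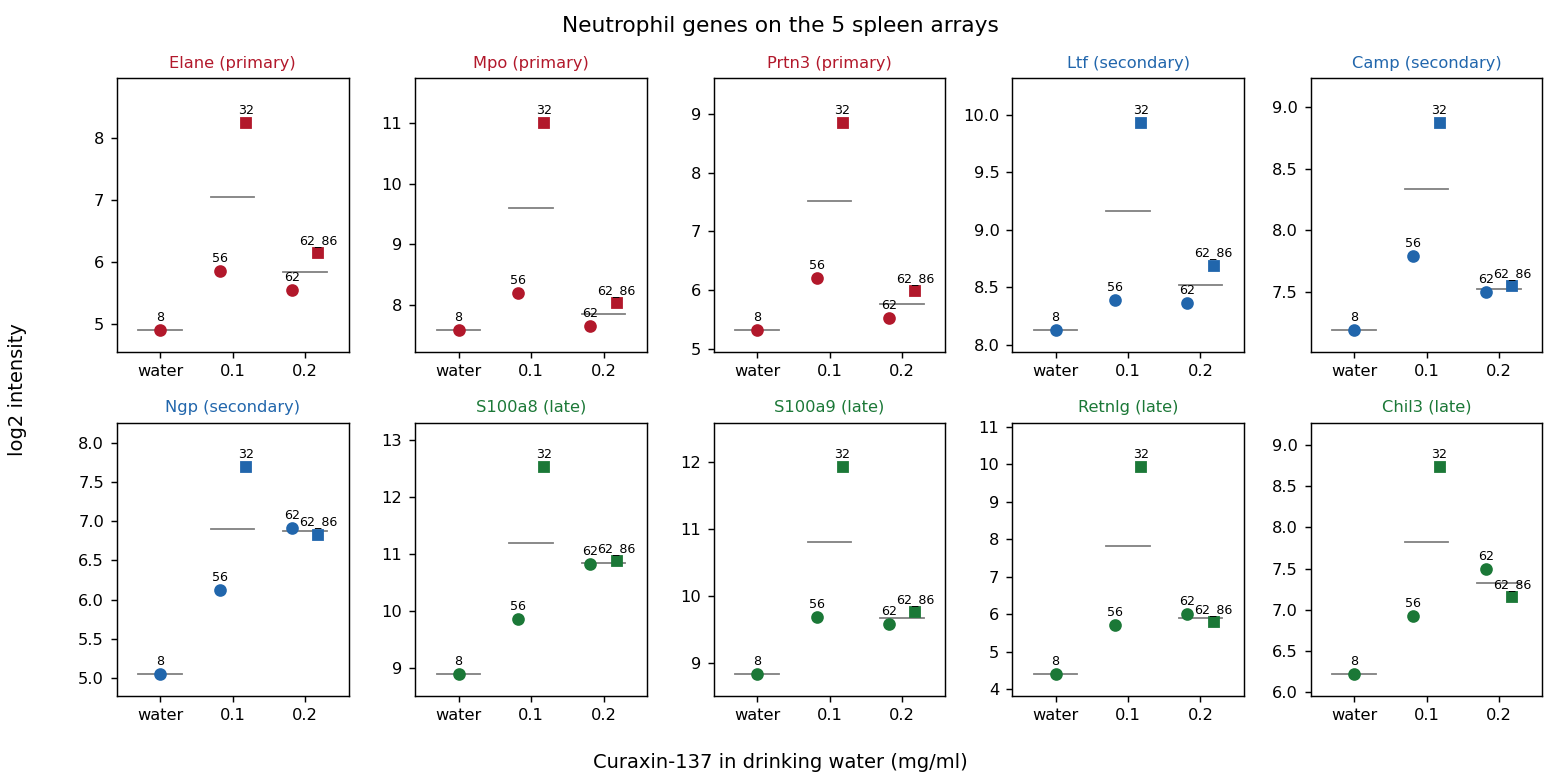
Log2 intensity of the 10 neutrophil genes on each spleen array, by dose in mg/ml, with the replicate named beside each point and the group mean as a grey line; the vertical axes differ in range between genes. All 4 treated arrays lie above the water array for every gene, and replicate 32 at 0.1 mg/ml lies 1.08 to 4.21 log2 above replicate 56.

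At 0.1 mg/ml against water the 10 genes read higher by 1.04 (Ltf) to 3.43 log2 (Retnlg), with a median of 1.98, against 0.02 over all 14179 features. The test was limma's moderated statistic on 1 mean per group, adjusted over all features, and it called 0 of the 10 genes and 0% of the features. Ngp had the smallest adjusted p of the 10, with a log2 difference of 1.85 ± 0.59 (SE) and an adjusted p of 0.483. Unadjusted p-values under 0.05 were found for 7 of the 10 genes, all higher, and for 661 higher and 727 lower features. For Retnlg the difference was 3.43 ± 1.43 (SE), with a 95% interval of 0.02 to 6.84.

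At 0.2 mg/ml against water the same genes read higher by 0.26 (Mpo) to 1.95 log2 (S100a8), with a median of 0.89, against 0.00 over all features. None of the 10 was called, nor was any feature (0%), and 1 of the 10, Ngp, had an unadjusted p under 0.05, beside 462 higher and 343 lower features. Ngp read 1.81 ± 0.59 (SE) higher, with an adjusted p of 0.708, and S100a8 read 1.95 ± 0.92 higher, with an adjusted p of 0.933. The other 8 genes had adjusted p-values of 0.998 or 1. The mean of both doses against water gave a median of 1.38, again with 0 of 10 genes and 0% of features called, and with unadjusted p-values under 0.05 for Ngp and S100a8.

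At 0.2 against 0.1 mg/ml all 10 genes read lower in the mean, with log2 differences of -1.93 (Retnlg) to -0.04 (Ngp) and a median of -0.97. None was called, at adjusted p-values of 0.556 or more, and none had an unadjusted p under 0.05. The test called 1 feature of 14179, which is 0.00705%. The order of the doses rested on replicate 32. Without it, 5 of the 10 genes read higher and 5 lower at 0.2 mg/ml, with a median of 0.06, and S100a8 rose by 0.96 log2 (adjusted p 0.0136). In that fit 1210 features were called, which is 8.77%. Without replicate 56 all 10 genes were called lower at 0.2 mg/ml, with a median of -2.03, beside 1798 features called (13.3%).

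The calls against water depended on which arrays entered the fit. Without replicate 32, 3 of 10 genes rose at 0.1 mg/ml against water, namely Retnlg by 1.41 log2 (adjusted p 0.00236), Ngp by 1.10 (0.0135) and S100a8 by 0.97 (0.0295), while 1304 features were called (9.45%). Without it, 5 of 10 rose at 0.2 mg/ml, with 578 features called (4.19%): S100a8 by 1.92 log2 (adjusted p 0.000134), Ngp by 1.86 (0.000178), Retnlg by 1.6 (0.000728), Chil3 by 1.12 (0.0131) and Elane by 0.98 (0.0472). In that fit the spread came from replicates 62 and 62_86 alone, which share a number, and the single arrays on water and at 0.1 mg/ml were assumed to vary like them. Without replicate 56, all 10 genes were called at 0.1 mg/ml, beside 2065 features (15.2%), and 6 of 10 at 0.2 mg/ml, beside 767 features (5.66%), on the same basis. For the mean of both doses 6 genes and 1168 features (8.47%) were called without replicate 32, and 10 genes and 1614 features (11.9%) without replicate 56. Without replicate 62, 3 genes and 71 features (0.521%) were called at 0.1 mg/ml, and without replicate 62_86, 6 genes and 119 features (0.867%). In each of these fits features were called in both directions, whereas the fit with all arrays called none in these comparisons. The direction against water held for 10 of 10 genes at both doses whichever of the 4 treated arrays was left out. Each treated array already lay above the single water array for all 10 genes, so this outcome was fixed beforehand and nothing is read from it.

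**Figure D2:**
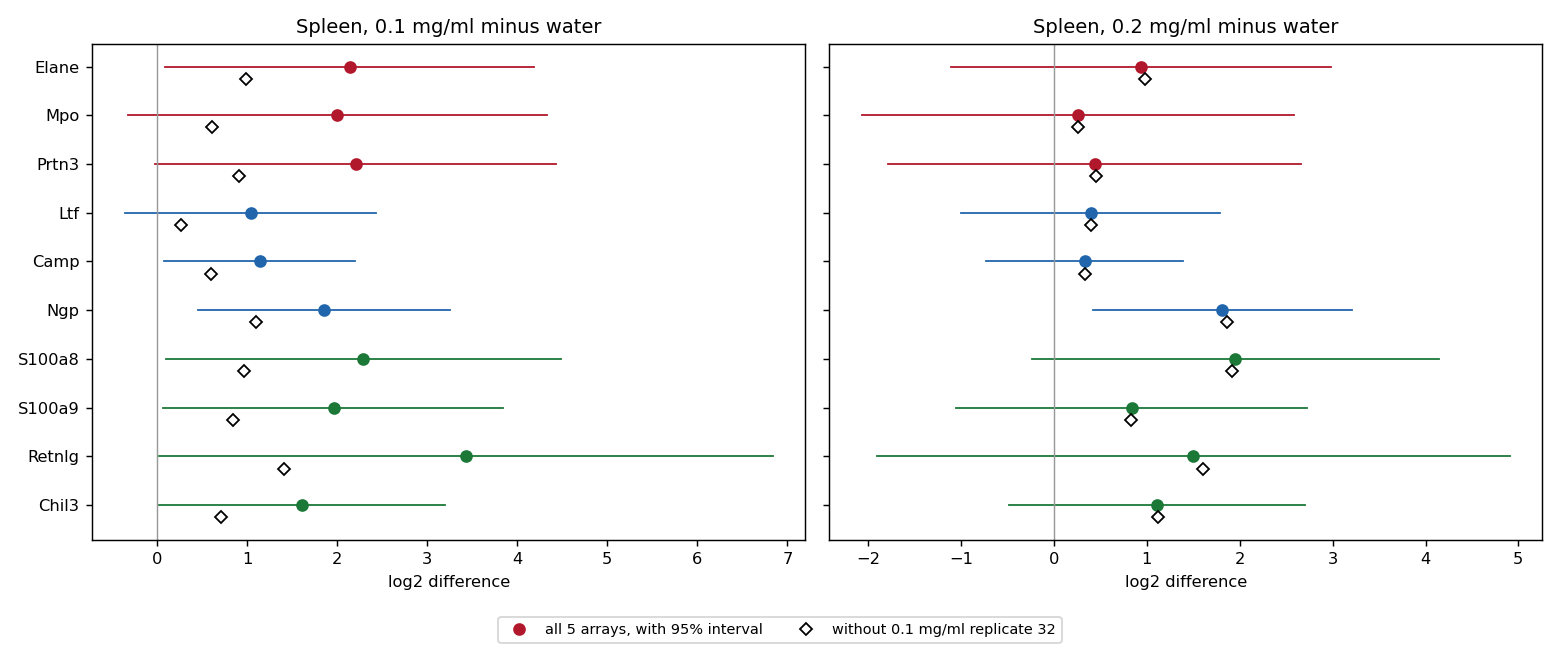
Log2 difference from water of each neutrophil gene in the spleen at 0.1 mg/ml (left) and 0.2 mg/ml (right); filled circles with lines give the fit of all 5 arrays with its 95% interval, and open diamonds the value without replicate 32. Primary genes are red, secondary genes blue and late genes green. At 0.1 mg/ml the median is 1.98 with replicate 32 and 0.88 without it, whereas at 0.2 mg/ml it is 0.89 with it and 0.91 without it.

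Other genes of the neutrophil programme were read for the same arrays, from lists that leave the 10 genes out. Of 9 other neutrophil markers measured in the spleen, 8 read higher at 0.1 mg/ml than on water, with a median of 1.33 log2. In the mean 8 also read higher at 0.2 mg/ml, with a median of 0.17, and none was called at either dose. The count at 0.2 mg/ml holds Stfa1 and Stfa2, which lay near the floor there and have no order. It also holds Il1r2, at 4.63 log2 on water and at 4.31 and 4.96 on replicates 62 and 62_86. Their summed intensity was 360 on water, 457 and 1820 on replicates 56 and 32 at 0.1 mg/ml, and 612 and 665 on replicates 62 and 62_86 at 0.2 mg/ml. Replicate 32 thus carried the most. The sums at 0.2 mg/ml passed that of replicate 56 mainly through Fpr2. This gene stood at 7.01 log2 on replicate 56, and at 8.24 and 8.4 on replicates 62 and 62_86. The rest of the markers fell on either side of replicate 56, so the larger sums are not a trait of the whole list. Lcn2, lipocalin 2, a secondary granule protein that binds siderophores, read 4.94 log2 on water, 6.54 and 8.51 at 0.1 mg/ml, and 6.72 and 6.50 at 0.2 mg/ml. The primary granule protease Ctsg, cathepsin G, read 4.22 on water, 5.04 and 8.58 at 0.1 mg/ml, and 5.57 and 5.76 at 0.2 mg/ml. Ctsg does not stand for its list. Of the 9 other primary granule genes, 4 read higher on replicate 32 than on replicate 56, with a median gap of -0.04 log2. Their summed intensity was 4910 on replicate 56 and 3180 on replicate 32. The cystatin Stfa2 read 4.20 on water, 4.41 and 8.63 at 0.1 mg/ml, and 4.21 and 4.20 at 0.2 mg/ml. The pattern of the last gene was thus high on replicate 32 only, whereas Lcn2 and Ctsg were also above water on the other 3 treated arrays.

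By granule stage, 7 of 9 other primary granule genes read higher at 0.1 mg/ml than on water (median 0.56), as did 13 of 14 other secondary and tertiary granule genes (0.45) and 19 of 20 other late neutrophil genes (0.66). At 0.2 mg/ml the counts were 8 of 9 (0.49), 14 of 14 (0.29) and 16 of 20 (0.13). None of these genes was called in either comparison. By smallest unadjusted p, the first of these 3 lists at 0.1 mg/ml were Serpinb1a, an inhibitor of neutrophil proteases, at a log2 difference of -0.74 ± 0.27 (SE), Pglyrp1, a bactericidal granule protein, at 1.20 ± 0.26, and Trem1, a myeloid surface receptor, at 0.97 ± 0.28. The granulocyte transcription factors were split, with 5 of 11 higher at 0.1 mg/ml (median -0.09) and 7 of 11 at 0.2 mg/ml (0.10). Of them, Cebpb, known for its part in emergency granulopoiesis, read 1.01 ± 0.26 higher at 0.1 mg/ml, with an adjusted p of 0.457. Recruitment signals had medians of 0.07 and 0.05 over 6 genes, and Cxcl12, a chemokine that holds neutrophils in the marrow through Cxcr4, read 0.80 ± 0.28 higher at 0.1 and 1.26 ± 0.28 higher at 0.2 mg/ml, with adjusted p-values of 0.494 and 0.417. Receptors of calprotectin and protease inhibitors were near 0 in the median, at -0.01 and -0.09 over 12 genes.

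Markers of other cells moved with the neutrophil genes on replicate 32. All 8 erythroid markers read higher there than on replicate 56, with a median gap of 1.80 log2, and all 10 cycling markers did, with a median of 1.62. The summed erythroid intensity was 18300 on water, 21900 and 38800 on replicates 56 and 32, and 20200 and 21600 at 0.2 mg/ml, and the summed cycling intensity was 1490, 2190 and 6590, and 1660 and 1650. B cell markers were lower on replicate 32 in 4 of 5, with a median gap of -1.08, and T cell markers in 4 of 5, with a median of -0.65. On the same array 10 of the 10 neutrophil genes stood over 1 log2 above replicate 56, against 5.95% of all features. At 0.2 mg/ml the macrophage markers had a median of 1.12 over 9 genes against water, where 6 of the 9 read higher. Their part in the values of the neutrophil genes was not tested.

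Set by granule class, the spleen arrays gave 3 different profiles. The class profile is the median over the genes of a class of the log2 value minus the gene's mean over the 5 spleen arrays. For the primary genes it was -1.06 on water, -0.28 and 2.48 on replicates 56 and 32, and -0.84 and -0.40 on replicates 62 and 62_86. The secondary genes had -0.59 on water, -0.31 and 1.17 at 0.1 mg/ml, and -0.28 and -0.01 at 0.2 mg/ml. Late genes had -1.41 on water, -0.51 and 1.94 at 0.1 mg/ml, and -0.08 and -0.17 at 0.2 mg/ml. In these medians both arrays at 0.2 mg/ml were above replicate 56 for the late and the secondary genes and below it for the primary genes. Single genes departed from their class, since S100a9 on replicate 62 lay below replicate 56 and Elane on replicate 62_86 above it. Of the secondary genes, Camp lay below replicate 56 on both arrays at 0.2 mg/ml, and Ltf did so on replicate 62. The secondary profiles of replicates 62 and 56 were close, at -0.28 and -0.31, so that class is not clearly set apart from replicate 56. The difference of 0.2 mg/ml from water was 0.44 for the primary, 0.44 for the secondary and 1.28 for the late genes, and that of 0.1 mg/ml from water was 2.16, 1.02 and 2.12. The spread of the profile between arrays of a dose, pooled, was 1.40, 0.75 and 1.23 (SD) for the primary, secondary and late genes, so among these differences only those at 0.1 mg/ml and that of the late genes at 0.2 mg/ml exceed it. The differences at 0.1 mg/ml rested on replicate 32. Without that array, a choice made after the data were seen, they were 0.78, 0.28 and 0.90 for primary, secondary and late genes. The spread of 1.40, 0.75 and 1.23 holds the gap between replicates 32 and 56, so it cannot judge these smaller values. The differences between classes were not tested.

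**Figure D3:**
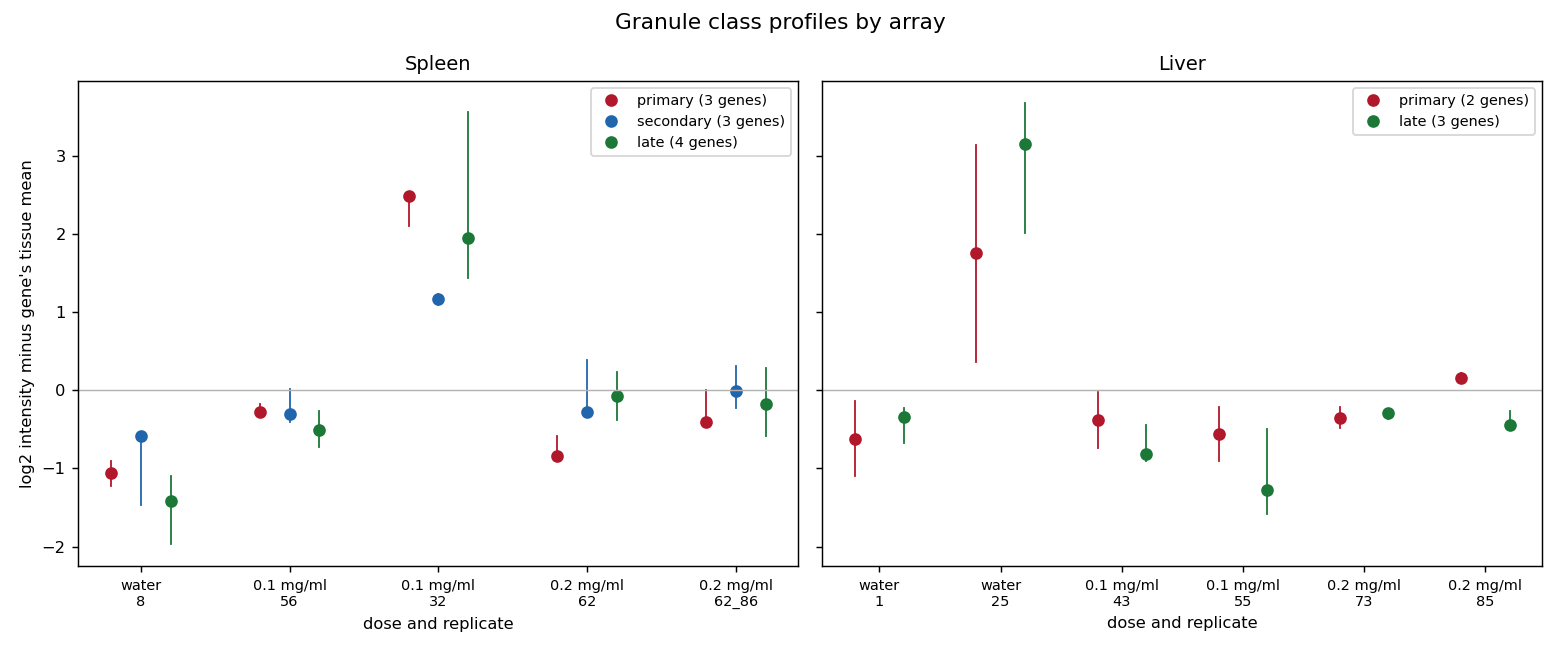
Median log2 intensity of the genes of each granule class on each array, relative to each gene's mean in that tissue; vertical lines run from the lowest to the highest gene of the class. In the spleen replicate 32 reaches 2.48 for the primary genes, and in the liver replicate 25 on water reaches 3.15 for the late genes, with no secondary gene kept there.

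In the liver 5 of the 10 genes passed the filter, that is, were detected on at least 2 of the 6 arrays: Elane, Prtn3, S100a8, S100a9 and Retnlg. Mpo, Ltf, Camp, Ngp and Chil3 were detected in the liver on 1 array only, replicate 25 on water. S100a8 and Prtn3 were detected on all 6 liver arrays, S100a9 on 5, Elane on 3, and Retnlg on both water arrays only. Values near 4 log2 lie at the floor that the offset sets, so they have no order.

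S100a8 read 5.48 and 9.81 log2 on liver replicates 1 and 25 on water, 5.25 and 4.56 on replicates 43 and 55 at 0.1 mg/ml, and 5.88 and 5.89 on replicates 73 and 85 at 0.2 mg/ml. S100a9 read 5.21 and 8.70 on water, 4.75 and 4.29 at 0.1 mg/ml, and 5.27 and 5.12 at 0.2 mg/ml. The calprotectin pair was thus high on 1 of the 2 water arrays, and the other water array lay among the treated ones. Prtn3 read 4.47 and 8.69 on water, 4.82 and 4.66 at 0.1 mg/ml, and 5.08 and 5.66 at 0.2 mg/ml. Retnlg read 4.42 and 6.66 on water, 4.20 and 4.16 at 0.1 mg/ml, and 4.27 and 4.18 at 0.2 mg/ml. Elane read 4.33 and 4.83 on water, 4.45 and 4.26 at 0.1 mg/ml, and 4.26 and 4.69 at 0.2 mg/ml, close to the floor on every array. Replicate 25 was the highest of the 6 arrays for all 5 genes, against 18.6% of all features. It stood over 1 log2 above replicate 1 for 4 of the 5 genes, against 2.27% of all features, with gaps of 4.33 for S100a8, 4.23 for Prtn3, 3.49 for S100a9 and 2.24 for Retnlg, and 0.50 for Elane. Retnlg passed the filter through the 2 water arrays alone, so its lower reading on the treated arrays was fixed by the filter.

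**Figure D4:**
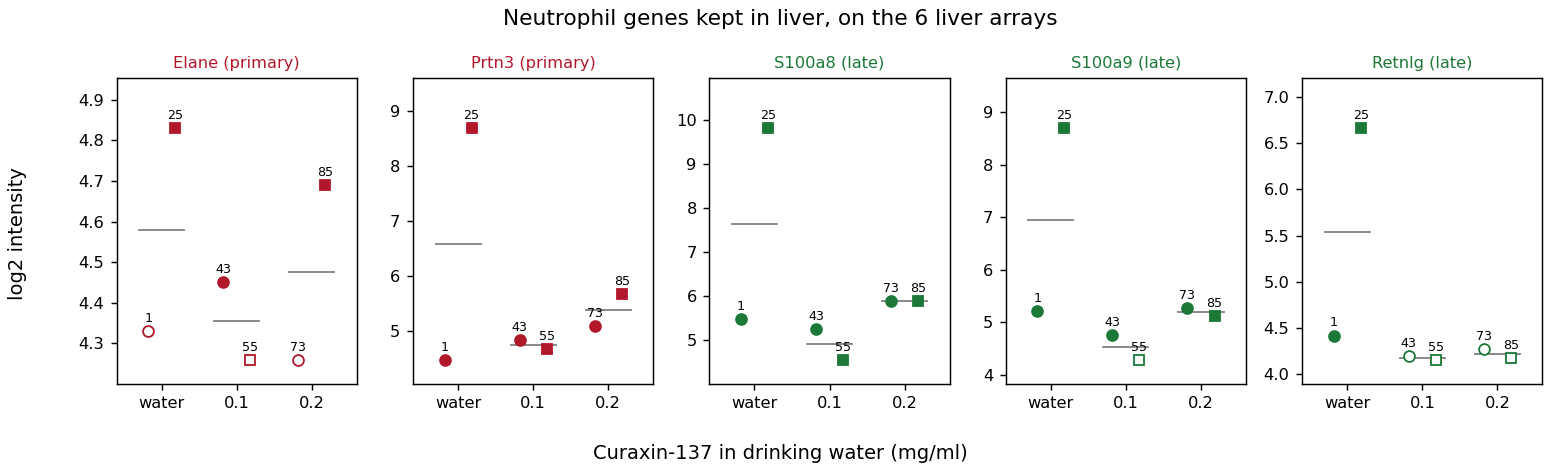
Log2 intensity of the 5 neutrophil genes that passed the filter in the liver, by dose in mg/ml, with the replicate beside each point, open symbols where the probe was not detected and the group mean as a grey line; the vertical axes differ in range between genes. Replicate 25 on water is the highest point in each panel, and for S100a8 it reads 9.81, against 4.56 to 5.89 on the other 5 arrays.

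At 0.1 mg/ml against water all 5 genes read lower in the liver, with a median of -1.84 log2, and 0 of 5 were called, as was 0% of the 12800 features. The differences were -2.74 ± 1.10 (SE) for S100a8, -2.44 ± 0.89 for S100a9, -1.84 ± 1.07 for Prtn3 and -0.22 ± 0.23 for Elane, each with an adjusted p of 0.984. Retnlg, undetected on all treated liver arrays, was at least 2.20-fold lower at 0.1 mg/ml and at least 2.19-fold lower at 0.2 mg/ml, with adjusted p-values of 0.984 and 0.569. These bounds rest on replicate 25, since replicate 1 read near the floor, and without replicate 25 the gene did not enter the fit. The unadjusted p was under 0.05 for 3 of the 5 genes at 0.1 mg/ml, S100a8, S100a9 and Retnlg, beside 273 higher and 240 lower features. Since the filter fixed the lower reading of Retnlg, its part in the counts of this paragraph is no support for a difference. At 0.2 mg/ml against water all 5 read lower, with a median of -1.31, and none was called, nor was any feature (0%), with unadjusted p-values under 0.05 for 0 of the 5 genes and for 632 higher and 492 lower features. The mean of both doses against water gave a median of -1.53, with 0 of 5 genes and 0% of features called, and 3 of 5 genes, 431 higher and 328 lower features under 0.05 unadjusted. Every treated array lay below both water arrays for 5.86% of all features, and of the 5 genes for Retnlg alone, where the filter fixed this and nothing is read from it.

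These differences from water rested on replicate 25. Without it, the median over the 4 genes still measured was -0.27 at 0.1 mg/ml and 0.27 at 0.2 mg/ml, with none called, and Prtn3 and Elane read higher than water at both doses. Without replicate 1 in its place, 3 of 4 genes were called lower at each dose, with medians of -4.05 and -3.42 log2, beside 294 features (2.38%) at 0.1 mg/ml and 182 (1.47%) at 0.2 mg/ml. The water group was then the single array 25, assumed to vary like the treated arrays, from which alone the spread came. S100a8 was at -4.90 and -3.94, S100a9 at -4.17 and -3.51 and Prtn3 at -3.94 and -3.33 relative to water at 0.1 and 0.2 mg/ml.

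At 0.2 against 0.1 mg/ml, which leaves the water arrays out of the difference, the 5 genes had a median of 0.63 log2 in the liver, against 0.01 over all features. S100a8, S100a9 and Prtn3 read higher in the mean, whereas Retnlg was undetected on all 4 of these arrays and Elane lay close to the floor, so neither has an order there. Both arrays at 0.2 mg/ml stood above both at 0.1 mg/ml for Prtn3, S100a8 and S100a9, 3 of 5 genes, against 25.3% of all features. None was called, nor was any feature (0%), and no gene of the 5 had an unadjusted p under 0.05, beside 656 higher and 561 lower features. S100a8 differed by 0.98 ± 1.10 (SE), S100a9 by 0.67 ± 0.89 and Prtn3 by 0.63 ± 1.07. The shared spread holds the gap between the water arrays. With replicate 25 left out S100a8 was called, at 0.95 log2 (adjusted p 0.0474), and with replicate 1 left out it was called at 0.96 (adjusted p 0.0473). In these fits 216 (1.75%) and 204 features (1.65%) were called.

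Replicate 25 also carried other genes high in the liver. The 5 other neutrophil markers measured there read higher than on replicate 1, with a median of 1.11 log2. Lcn2 read 4.53 and 11.50 on water, 5.39 and 5.01 at 0.1 mg/ml, and 7.10 and 8.05 at 0.2 mg/ml, though hepatocytes make it too in the acute phase. Of 21 acute phase genes 18 stood higher on replicate 25 than on replicate 1, with a median of 1.13. The serum amyloid gene Saa1 read 7.28 and 13.47 on water, 8.53 and 8.20 at 0.1 mg/ml, and 8.80 and 10.98 at 0.2 mg/ml. The neutrophil chemokine gene Cxcl1 read 7.29 and 10.19 on water, 8.08 and 7.85 at 0.1 mg/ml, and 8.63 and 8.25 at 0.2 mg/ml. Macrophage markers were higher on replicate 25 in 11 of 11 (median 0.61) and cycling markers in 10 of 10 (median 1.08), whereas 7 hepatocyte markers had a median gap of 0.06. The part of these genes in the values of the neutrophil genes was not tested.

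Other primary, secondary and late neutrophil genes in the liver had medians of -0.11, -0.21 and -0.19 at 0.1 mg/ml against water, and of 0.24, -0.11 and -0.12 at 0.2 mg/ml, over 4, 11 and 10 genes, with none called. By smallest unadjusted p, the first of the lists at 0.2 mg/ml were Il1b, the cytokine interleukin 1 beta, which read 1.11 ± 0.27 log2 (SE) higher with an adjusted p of 0.319, Lyz2, the lysozyme of myeloid cells, 0.98 ± 0.33 higher with 0.446, and Cyba, a subunit of the NADPH oxidase, 0.45 ± 0.16 higher with 0.485. At 0.1 mg/ml those first of the transcription factors, the late and the secondary genes were Spi1, which encodes PU.1, at -0.54 ± 0.17, Wfdc21 at -0.36 ± 0.17 and Pglyrp1 at -0.58 ± 0.30, each with an adjusted p of 0.984. None of these differences passed the threshold.

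Set between the tissues, with all 11 arrays processed together, 8 of the 10 genes were higher in the spleen than in the liver, against 36.7% of all 16179 features that were called higher in the spleen. Of these 8, Mpo, Ltf, Camp, Ngp and Chil3 were undetected on 5 of 6 liver arrays and passed the filter through the spleen, where they are high, so the count is no support for a difference and their values are set in part by the floor. S100a8 and S100a9 were measured in both tissues. Each tissue mean here weights its 3 groups equally. S100a8 averaged 10.34 log2 in the spleen and 6.37 in the liver, a difference of 3.97 ± 0.72 (SE), with an adjusted p of 0.000899. S100a9 averaged 9.74 log2 in the spleen and 5.77 in the liver, a difference of 3.97 ± 0.61, with an adjusted p of 0.000305. Of the secondary genes Ltf was higher by 3.77 ± 0.42, Camp by 3.10 ± 0.24 and Ngp by 1.70 ± 0.27, at adjusted p-values of 3.63e-05, 2.6e-06 and 0.000397. Mpo was higher by 3.62 ± 0.60 (adjusted p 0.000488) and Chil3 by 2.28 ± 0.36 (adjusted p 0.000361). Every spleen array stood above every liver array for Mpo, Ltf, Camp and Chil3, 4 of the 10 genes, against 28.4% of all features. These 4 genes are among those that passed the filter through the spleen. This count, their p-values and that of Ngp are thus no support for a difference either.

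Prtn3, Elane and Retnlg had the smallest differences between tissues. Prtn3 read 5.07 on water, 5.90 and 8.70 at 0.1 mg/ml and 5.26 and 5.68 at 0.2 mg/ml in the spleen, against 4.59 and 8.82 on water, 5.07 and 4.86 at 0.1 mg/ml and 5.36 and 5.97 at 0.2 mg/ml in the liver. Its difference of 0.17 ± 0.76 log2 (SE) was not called, at an adjusted p of 0.859, with a 95% interval of -1.54 to 1.89. Elane was higher in the spleen by 1.12 ± 0.40, with an adjusted p of 0.0363 that was lost under 6 other ways of processing (0.052 to 0.127) and when any of 6 single arrays was left out (0.0534 to 0.0897). Retnlg differed by 1.17 ± 0.76, with an adjusted p of 0.216. Liver replicate 25 and spleen replicate 32 were also left out together, a choice made after the data were seen. Prtn3 then read higher in the spleen by 0.42 log2, Retnlg by 0.84 and Elane by 0.85. With replicate 25 left out, Retnlg was detected in the liver on replicate 1 alone and passed the filter through the spleen. Its value is thus set in part by the floor and is no support for a difference.

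**Figure D5:**
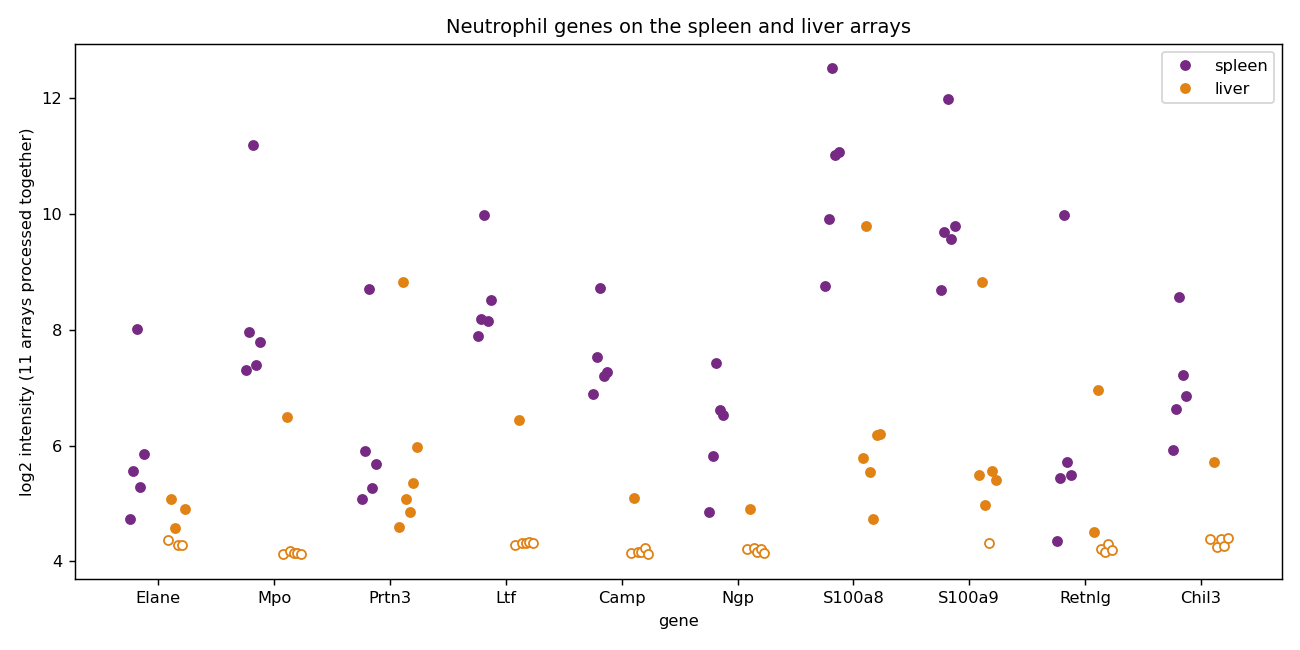
Log2 intensity of the 10 neutrophil genes on the 5 spleen arrays (left of each gene) and the 6 liver arrays (right), all arrays processed together; open symbols mark probes that were not detected. Mpo, Ltf, Camp, Ngp and Chil3 have 1 detected liver array each, and the ranges of Prtn3 overlap between tissues.

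The difference in dose effect between the tissues was tested in the same fit. Mpo, Ltf, Camp, Ngp and Chil3 were undetected on every liver array but replicate 25 on water, and passed the filter through the spleen. Their liver effect is set by that array and the floor. The counts and medians over the 10 genes, and the value of Ngp, rest in part on it and are no support for a difference. The mean effect of both doses was more positive in the spleen than in the liver for all 10 genes, by a median of 2.28 log2, but 0 of 10 were called, against 0.0371% of all features. The smallest adjusted p was 0.33, for Ngp, with a difference of 2.11 ± 0.61 (SE), and 4 of the 10 genes had an unadjusted p under 0.05. At 0.1 mg/ml the median was 2.91, with 0 of 10 genes and 0% of features called and 7 genes under 0.05 unadjusted. At 0.2 mg/ml it was 1.66, with 0 of 10 genes called, against 0.0494% of features, and 1 gene, Ngp, under 0.05 unadjusted. Without spleen replicate 56 the counts called were 4 for both doses, 6 at 0.1 mg/ml and 1 at 0.2 mg/ml, beside 1.84%, 3.81% and 0.646% of features. Without spleen replicate 32 they were 1, 0 and 1, beside 1.36%, 2.34% and 0.516%. Without liver replicate 25 and spleen replicate 32 together the medians were 0.84, 0.79 and 0.81, and 3, 2 and 2 genes were called, beside 3.11%, 3.43% and 1.91% of features, for both doses, 0.1 mg/ml and 0.2 mg/ml.

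The probes of one gene gave the same highest array, while the order of the arrays between highest and lowest differed between probes. Among the 4 Mpo probes in the spleen, replicate 32 was the highest on each, at 11, 10.21, 7.86 and 6.17 log2, and the water array the lowest, at 7.59, 6.58, 4.80 and 4.35. On the Mpo probe at 7.86, replicate 56 read 5.38, below 5.41 and 5.56 on replicates 62 and 62_86. The dimmest Mpo probe read 4.58 on replicate 56, against 4.65 and 4.95 on those arrays. On the brighter Mpo probes replicate 56 stood above both. The 2 other Chil3 probes read 8.17 and 5.35 on replicate 32 and 5.49 and 4.28 on water. The second Ltf probe, dim on every array, read 5.29 on replicate 32 and 4.25 on water. Replicate 32 was the highest array on each of these 9 probes. The water array was the lowest on 8 of them, while on the dimmest Chil3 probe it was undetected and the order of the low arrays is not shown.

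By profile, the genes most like the 10 were found by the root mean square difference between a gene's log2 profile, centred in each tissue, and the median profile of the neutrophil genes. Over all 11 arrays these were Cdca3 (0.36), Chil1 (0.36), Cdkn3 (0.37), Plk1 (0.38), Pbk (0.39), Anln (0.40), Cstdc4 (0.42), Kif2c (0.42), Gtse1 (0.43) and Top2a (0.43). Most of these are genes of mitosis, while Chil1 encodes a chitinase-like protein of granules. The neutrophil genes themselves differed from the median profile by 0.23 (Ltf) to 0.74 (S100a8) over all 11 arrays. Over the spleen arrays they differed by 0.02 (S100a9) to 0.86 (Retnlg), and over the liver arrays by 0.17 (S100a9) to 1.22 (Elane). A gene near the median profile is thus not near each of the 10. The median profile itself was -0.23 and 1.87 on the liver water arrays, replicates 1 and 25, and -0.37 to -0.19 on the 4 treated liver arrays. In the spleen it was -1.14 on water, -0.36 and 1.95 on replicates 56 and 32 at 0.1 mg/ml, and -0.38 and -0.17 at 0.2 mg/ml, so that a gene high on these 2 arrays ranks as alike.

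Over the 5 spleen arrays alone the most alike were Stab1 (0.08), Nt5dc2 (0.10), Asns (0.13), Hp (0.15), Tyms (0.16), Nipa1 (0.16), Chil1 (0.17), Anln (0.18), Hemgn (0.19) and Gata1 (0.19). Of them Hp, haptoglobin, is stored in neutrophil granules, and it read 4.56 log2 on water, 5.50 and 8.02 at 0.1 mg/ml, and 5.63 and 5.59 at 0.2 mg/ml. Gata1 and Hemgn are erythroid genes. Over the 6 liver arrays they were Cyb561 (0.41), Saa2 (0.43), Dnajc12 (0.44), Pnpla3 (0.46), Mt2 (0.54), Apcs (0.55), Slc41a2 (0.60), Fabp5 (0.66), Prepl (0.68) and Orm2 (0.68). Saa2, Apcs and Orm2 among them are acute phase genes made by hepatocytes, and Saa2 read 4.39 and 8.09 on water, 4.27 and 4.59 at 0.1 mg/ml, and 4.56 and 5.68 at 0.2 mg/ml.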

How the data were processed

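RNA of 6 liver and 5 spleen samples was measured. The intensities the authors deposited are unscaled bead signals with a detection p-value for each, per the file headers, and the submitters' processing notes name GenomeStudio 1.6.0. The deposited series matrix holds log2 values, which lay within 0.0898 of the log2 of quantile-normalized signals.

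Signals were processed per tissue with neqc of limma 3.58.1 in R 4.3.3 (normexp background from the detection p-values, offset 16, quantile normalization, log2). A probe entered the fit if 2 or more arrays detected it at p under 0.05, and the probe with the highest mean stood for its gene. This left 12800 features in liver, 14179 in spleen and 16179 for all 11 arrays together. One mean per group was fitted with lmFit and eBayes, with Benjamini-Hochberg adjustment at 0.05 over all features. Residual degrees of freedom were 3, 2 and 5. A fold is given as a lower bound where a group was undetected on all its arrays, set there to the lowest value of a detected probe.

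The genes and lists were chosen with earlier results of these data known. The named genes are the 10 genes, all their probes, near-identical relatives, up to 3 genes of each list by smallest unadjusted p, and the 10 genes most alike in profile. Fpr2 is named for its part in a summed intensity, and Stfa1 and Il1r2 for their part in a count. Gene names came from the platform annotation and promoters from RefSeq. The number of arrays limits the precision. The fits were tested on simulated data. The alternatives were other scaling, background, offset, filter, probe and moderation settings, the authors' normalized values, the arrays numbered 62 averaged, all arrays fitted together, and each array left out in turn.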

Additional observations from a re-analysis of the deposited data

Results flagged for a closer look

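Some genes had every treated array above the water array in the spleen and every treated array below both water arrays in the liver, in the joint processing of all 11 arrays. Of all 16179 features, 5.14% had this pattern at 0.1 mg/ml, 6.78% at 0.2 mg/ml and 1.32% at both. For Retnlg this held at both doses, and the effect in the spleen minus that in the liver was 3.82 log2 for the mean of both doses, 4.90 at 0.1 mg/ml and 2.74 at 0.2 mg/ml, with adjusted p-values of the difference of 0.555, 0.467 and 0.805. At 0.1 mg/ml it also held for S100a8, with 5.11 log2 (adjusted p 0.422), for S100a9, with 4.67 (0.387), and for Chil3, with 2.41 (0.444). Retnlg was undetected on all treated liver arrays, and Chil3 on all liver arrays but replicate 25, so their order in the liver lies at the floor and is not shown. None of these 6 differences passed the threshold in limma's test.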

How the results depend on the processing

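No paired analysis was possible because no replicate number is shared between groups. Whether a liver and a spleen sample came from the same mouse is not given. The fits across tissues treat all arrays as independent. The counts of genes called changed by no more than 1.5 times in all 104 recomputations that kept every array, and all 60 class differences recomputed with every array moved by less than the spread between arrays. The strict filter, detection at p under 0.01 on every array, left none of the 10 genes in the liver or in the joint fit and gave no value there; in the spleen it left 9, with 0 called.

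Leaving out 1 array changed counts of genes called, and counts of all features called beside them (1 to 2065 in the spleen, 0 to 610 in the liver). Against water in the liver 0 to 3 genes were called at 0.1 mg/ml, at 0.2 mg/ml and for both doses, and 0 to 1 between doses. In the spleen the counts were 3 to 10 at 0.1 mg/ml, 0 to 6 at 0.2 mg/ml, 0 to 10 between doses and 0 to 10 for both doses. For the difference in dose effect between tissues they were 0 to 4 for both doses. They were 0 to 6 at 0.1 mg/ml and 0 to 1 at 0.2 mg/ml. Beside them up to 1.84%, 3.81% and 0.646% of all features were called, in the same order. For spleen against liver 7 to 9 genes were called, beside 34.8% to 39.2% of features called higher in the spleen. Without liver replicate 25 and spleen replicate 32 together, added after seeing the data, 3, 2 and 2 genes were called for the difference in dose effect. Beside them 3.11%, 3.43% and 1.91% of features were called, for both doses, 0.1 mg/ml and 0.2 mg/ml. In the fits across tissues Mpo, Ltf, Camp, Ngp and Chil3 passed the filter through the spleen, as did Retnlg without liver replicate 25. The counts across tissues are thus no support for a difference.

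The class differences with 1 array left out were also added after seeing the data. They moved by more than the spread in 10 cases and by less in 38, against a spread computed with every array. Against water in the liver the primary genes ran from -2.22 to 0.15 at 0.1 mg/ml and from -1.84 to 0.52 at 0.2 mg/ml, and the late genes from -4.19 to -0.70 and from -3.51 to -0.02, with the low ends without replicate 1 and the high ends without replicate 25. Late genes in the spleen ran from 0.90 without replicate 32 to 3.35 without replicate 56 at 0.1 mg/ml against water, and from -2.06 to 0.38 between doses.

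Directions turned for single genes when 1 array was left out. Against water in the liver, Elane ran from -0.46 to 0.03 log2 at 0.1 mg/ml, from -0.35 to 0.14 at 0.2 mg/ml and from -0.40 to 0.08 for both doses, and Prtn3 from -3.94 to 0.26, from -3.33 to 0.87 and from -3.63 to 0.57, with each positive end found without replicate 25. Elane was also at 0.11 at 0.2 mg/ml without replicate 73. S100a8 ran from -3.94 to 0.40 at 0.2 mg/ml, and Elane between doses from -0.10 without replicate 85 to 0.33. Between the spleen doses, Ltf ran from -1.42 to 0.13, Ngp from -0.78 to 0.76, S100a8 from -1.81 to 0.96, Retnlg from -3.90 to 0.18 and Chil3 from -1.38 to 0.41, with the low end without replicate 56 and the high end without replicate 32, and Ngp was at 0 without replicate 62_86. Prtn3 turned between tissues, to -0.53 without liver replicate 1 and -0.29 without spleen replicate 32. In the difference of dose effects it ran to 3.54 at 0.2 mg/ml and to 4.80 for both doses without liver replicate 1, with -0.67 at 0.2 mg/ml without liver replicate 25, and -0.12 for both doses and -0.69 at 0.2 mg/ml without that array and spleen replicate 32. The cause was not tested. Genes near 4 log2 lie at the background, where differences are understated.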
